A study of Mus musculus with 192 samples.

Results

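Pomc (pro-opiomelanocortin) was 1 of the 43 target genes counted with the NanoString nCounter, an assay in which barcoded probes hybridise to RNA and are counted without amplification, in 4 brain regions of Line 44 (L44) mice. The gene was taken by its name in the table of counts, and all 192 pools were used. L44 mice are FVB/n mice that carry a transgene for tripro-human amylin, a form of amylin that does not aggregate, under the rat insulin 2 promoter, which is active mainly in pancreatic β-cells. Male hemizygous (HEM, 62 pools), homozygous (HOM, 58 pools) and nontransgenic (NON, 72 pools) mice of this line were compared, and the NON mice were bred from HEM parents. T1 (55 pools) was 100 days of age, with labelled ages of 99 to 101 days. T2 (68 pools) was the onset of diabetes in HEM and HOM mice, with NON mice as controls. Labelled ages were 90 to 286 days in NON, 90 to 271 days in HEM and 100 to 246 days in HOM mice. The study describes these NON controls as lower in blood glucose than the diabetic HEM and HOM mice. T3 (69 pools) was 400 days, with labelled ages of 400 to 408 days. Tissue was collected in the morning (AM) or in the afternoon (PM), except that the labels gave no collection time for 12 HEM pools of T1, 3 in each region. The hindbrain included the cerebellum, the midbrain was the rest of the brain with the forebrain and hypothalamus, and the cortex was split into left and right. A pool held the RNA of 2 mice (149 pools) or of 1 mouse (43 pools), and pools with the same pool label in different regions were taken as the same mice. The collection time, ages and other labels of such pools agreed for 49 of 50 pool labels, and a T3 HOM PM pool had a second mouse of another age in the left cortex than in the midbrain. Total counts of the 43 target genes ranged from 3489 to 525264 per pool, with a median of 234937.

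POMC is the precursor that is cut into α-melanocyte-stimulating hormone, β-endorphin and adrenocorticotropic hormone. In the brain it is made by neurons of the arcuate nucleus of the hypothalamus and by a smaller group in the hindbrain, in the solitary tract nucleus, and outside the brain it is abundant in the pituitary. Leptin and insulin act on the arcuate neurons, the melanocortin peptide released binds the receptor encoded by Mc4r and lowers food intake, and the product of Agrp blocks that receptor. In these data Pomc was read in whole regions, so fewer Pomc cells and less Pomc RNA per cell cannot be told apart, and the panel held no marker of the pituitary other than Pomc. Levels are given as counts per 1000 counts of the 3 reference genes of the same pool (their geometric mean), and differences as the log2 fold-change ± SE from edgeR's quasi-likelihood test, with p-values adjusted by Benjamini-Hochberg within each comparison (43 genes). Genes were called different when the adjusted p was under 0.05 and the log2 fold-change was above 1 in either direction.

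Pomc was highest in the midbrain, next in the hindbrain, and lowest in both cortices. Its level in the midbrain was 9.51 in the lowest of 49 pools, 54.2 at the median and 139 in the highest. In the hindbrain it was 3.78 in the lowest of 46 pools, 20.9 at the median and 189 in the highest. The cortices were low, with 3.67, 8.98 and 22.4 as the lowest, median and highest level of 48 left cortex pools. The 49 right cortex pools gave 4.32, 9.88 and 44.6. The regions overlapped, and the hindbrain reached from near the lowest cortical level to above the highest midbrain level. Median levels of NON, HEM and HOM pools were 52.6, 49.9 and 64.7 in the midbrain and 24.6, 17.8 and 18.2 in the hindbrain. For the left cortex they were 10.1, 8.09 and 7.79, and for the right 9.47, 9.12 and 12.5.

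The background of a pool was set as the mean plus 2 SD of its 8 negative control probes. All 49 midbrain pools, 43 of 46 hindbrain pools, 45 of 48 left cortex pools and 48 of 49 right cortex pools had a Pomc count above it. The median Pomc count was 334 in the midbrain and 106 in the hindbrain, or 14.1 and 6.56 times the background of the pool. The left cortex had 53.5 and the right 63, or 2.29 and 2.23 times the background, so that cortical levels lay near the limit of the assay. The 3 hindbrain pools that were not above background had 5, 4 and 1 Pomc counts, all came from T3, and had reference gene means of 511, 267 and 130.5 counts.

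**Figure D1:**
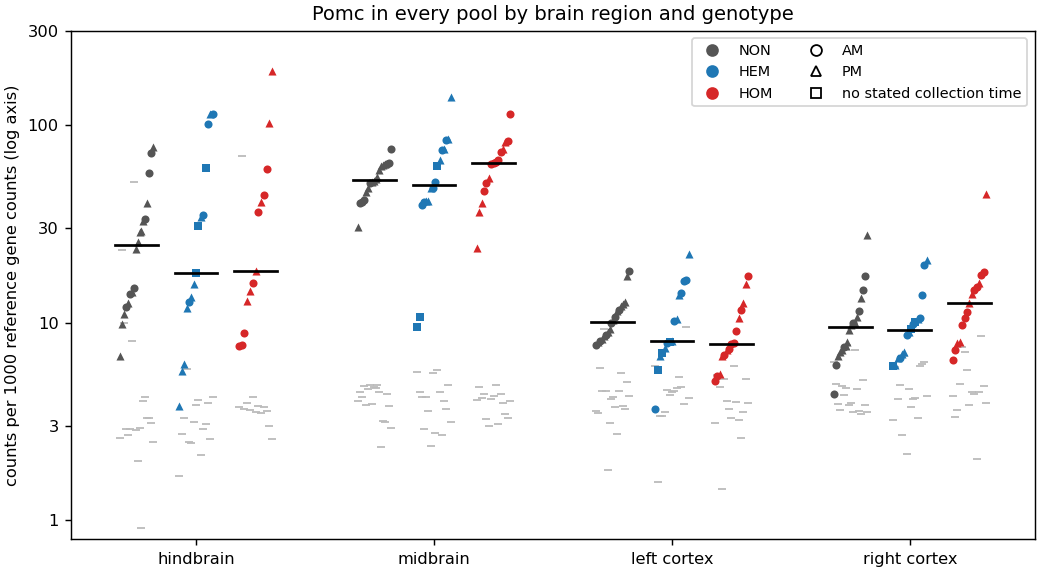
Pomc in each of the 192 pools (counts per 1000 reference gene counts, log axis) by brain region and genotype, with the collection time as the marker shape, a black line at the median of each genotype, and grey dashes at the background limit of each pool. Midbrain medians lie between 49.9 and 64.7, hindbrain pools spread from 3.78 to 189, and cortical pools have medians of 7.79 to 12.5, with 3 left and 1 right cortex pools not above background.

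In NON mice Pomc was lower in the left cortex than in the midbrain, with a log2 fold-change of midbrain against left cortex of 2.32 ± 0.20 (adjusted p = 4.98e-17). Midbrain exceeded right cortex by 2.39 ± 0.20 (adjusted p = 1.00e-17). Hindbrain exceeded left cortex by 1.37 ± 0.21 (adjusted p = 1.72e-08) and right cortex by 1.44 ± 0.20 (adjusted p = 2.37e-09). The neighbours in this order were closer. Hindbrain was below midbrain by a log2 fold-change of -0.95 ± 0.20 (adjusted p = 1.28e-05), which passed the adjusted p but not the fold-change limit. It was past that limit, and called, with the negative control mean subtracted (-1.07), with only these regions fitted (-1.01) and on the positive control scale (-1.50). The same held on leaving out any 1 of 4 pools, namely the hindbrain pools at 72.4 (-1.03) and 78.0 (-1.10) and the midbrain pools at 41.8 and 30.5 (just past the limit in both cases). For NON mice left against right cortex was 0.07 ± 0.21 (adjusted p = 0.994). The same order held in transgenic mice, in which midbrain or hindbrain exceeded a cortex by 1.36 to 2.79. Hindbrain against midbrain was -0.86 ± 0.36 in HEM (adjusted p = 0.0261) and -0.87 ± 0.26 in HOM mice (adjusted p = 0.00242). It was called in HEM mice without the hindbrain pool at 114.5 (-1.14), 114.2 (-1.12) or 102.2 (-1.12), and in HOM mice without the hindbrain pool at 189.1 (-1.13). Left against right cortex was 0.08 ± 0.39 in HEM (adjusted p = 0.998) and -0.57 ± 0.26 in HOM mice (adjusted p = 0.687). Pomc was called in 12 of the 18 region comparisons, all of them of midbrain or hindbrain against a cortex, and 15 passed the adjusted p alone. The number passing was 13 with TMM normalisation, where hindbrain against midbrain was -0.52 in HEM (adjusted p = 0.185) and in HOM mice (adjusted p = 0.0581). It was 14 with only the regions compared in the fit (HEM hindbrain against midbrain, adjusted p = 0.0838) and 14 on the scale of the positive control probes (HOM hindbrain against right cortex, adjusted p = 0.112). Over all 43 genes the called share was 22.1% in NON, 22.9% in HEM and 22.9% in HOM mice, and the share passing the adjusted p alone was 66.7%, 64.7% and 61.6%. With the pool of the same mice as a replicate block, hindbrain against midbrain in HEM mice became -1.38 (adjusted p = 0.00106) and 13 were called. Scaling to the positive control probes lowered 3 of the hindbrain against cortex differences below the fold-change limit, to 0.82 and 0.58 in NON and 0.55 in HOM mice.

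Pools of the same mice were measured in all 4 regions 35 times. Pomc was highest in the midbrain in 26 of these sets and in the hindbrain in the other 9, and never in a cortex. Without the T1 HEM sets of no stated collection time, left out after seeing their values, it was highest in the midbrain in 25 and in the hindbrain in 7 of 32. Both cortices were below the midbrain in 34 sets and below the hindbrain in 28. The hindbrain to midbrain ratio, over 38 sets with both, ran from 0.0442 to 3.24 with a median of 0.455.

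Of the other melanocortin and feeding genes of the panel, Agrp, Npy (an appetite-stimulating peptide of the arcuate nucleus and of cortical neurons), Cart (made in part by the Pomc neurons themselves), the receptor gene Mc4r, Hcrt (orexin, of the lateral hypothalamus) and Mch (melanin-concentrating hormone, of the same area) were taken as a list. In NON mice 5 of the 6 were called higher and 1, Npy, lower in midbrain than in either cortex, with a median log2 fold-change of 1.85 against both cortices, where the median of all 43 genes was -0.01 against the left and 0.09 against the right. Of the 43 genes, 14 and 13 were called in these comparisons. Of the same list, 5 of 6 were called lower in hindbrain than in midbrain, with a median of -1.66 against -0.38 over the 43 genes, of which 9 were called. The 13 genes of leptin and insulin input (Lepr, Lepr-b, Jak2, Stat3, Socs3, Ptp1b, Pias3, Ir, Irs1, Irs2, Pik3ca, Pik3r1 and Foxo1) had a median of -0.30 in that comparison, with 1 called lower.

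Of the hypothalamic markers, Mch and Hcrt had medians farther apart between midbrain and the other regions than Pomc did. The median level of Mch was 4107 in midbrain, 24.6 in hindbrain, 17.0 in left and 18.6 in right cortex. Hcrt was at 136 in midbrain and at 4.49, 4.76 and 4.94 elsewhere (hindbrain, left and right cortex), which is close to background. Agrp was at 18.7 in midbrain and at 6.76, 4.77 and 5.32 in the others, and was above background in 33 of 48 left and 32 of 49 right cortex pools. Hdc, which encodes the enzyme that makes histamine in the tuberomammillary nucleus, was about as high in hindbrain (41.4) as in midbrain (44.4) and lower in left (10.0) and right cortex (10.3). The 6 marker genes other than Pomc summed to 803 to 1483 in the hindbrain pools (median 1149) and to 5530 to 11905 in the midbrain pools (median 8373). Npy was the most abundant of them in all 46 hindbrain pools and Mch in 37 of 49 midbrain pools, and Agrp, Hcrt and Mch were at 0 counts in none of these pools.

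In the hindbrain Pomc varied more between pools of the same group than most genes did. The within-group SD of its log2 level was 1.04, the third highest of the 43 genes, whose median was 0.26. Midbrain pools gave 0.54 (median of all genes 0.12), left cortex pools 0.47 (0.19) and right cortex pools 0.59 (0.18). Levels above 100 were reached in 5 hindbrain pools of 4 groups, namely T2 HEM AM, T2 HEM PM, T2 HOM PM (2 pools) and T3 HEM AM. In these 5 pools Agrp lay between 3.79 and 9.57, Hcrt between 3.06 and 6.70, Mch between 14.9 and 29.4 and Hdc between 40.7 and 44.5. The hindbrain medians were 6.76, 4.49, 24.6 and 41.4, and the lowest Agrp level of all hindbrain pools was among these 5. Other hindbrain pools had higher markers beside Pomc. A T1 NON AM pool with Pomc at 57.4 had Agrp at 47.7, Hcrt at 23.1, Mch at 52.7 and Hdc at 71.8, and a T1 HEM pool with Pomc at 61.1 had Mch at 89.8 with Agrp at 4.88. Over 45 hindbrain pools the log2 deviation of Pomc from its group mean correlated with that of Agrp at r = -0.24, of Mch at 0.02, of Hcrt at -0.00 and of Hdc at -0.12, as a description over pools that share groups. The part of pituitary or other tissue in these levels was not tested.

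In the midbrain the genes most like Pomc were Hdc (r = 0.74 over 48 pools, rho = 0.52), Agrp (r = 0.63, rho = 0.63) and Calcr (r = 0.62, rho = 0.47), the last encoding the calcitonin receptor that forms the core of amylin receptors. Without the 2 pools whose Pomc deviated most from the group mean these were 0.48, 0.54 and 0.32. The 2 pools were HEM pools of T1 without a stated collection time, at 62.1 and 9.51, and without all 3 such pools r was 0.41, 0.55 and 0.41 over 45 pools. The least alike was Gsk3a, a kinase that insulin signalling inhibits (r = -0.59). Of these 3 HEM pools, 2 had Pomc at 9.51 and 10.7 where the other had 62.1. The Hdc levels of the 2 low pools were 10.1 and 16.5, the Agrp levels 5.71 and 7.94, all low for midbrain, and the Mch levels were 2380 and 3391, below the midbrain median. Not all markers were low. Hcrt was at 84.3 and 143 and Cart at 582 and 931, where the midbrain medians were 136 and 856. The pool with Pomc at 10.7 was above both of these medians. The hindbrain pools of the same mice had Pomc at 30.8 and 17.8, and Agrp at 38.3 and 31.8, which is high for hindbrain. Whether the tissue of these mice was divided between the regions as in the others was not tested. These pools are not in the region comparisons, which used pools with a stated collection time. In the hindbrain the most alike were Calcr-1a, an isoform of that receptor (r = 0.34), Gsk3b (0.26) and Cart (0.22), and the least alike was Npy (-0.29). Without the 2 hindbrain pools farthest in Pomc these were 0.34, 0.16, 0.13 and -0.32. In the left cortex the most alike were Lepr, the leptin receptor (0.56 over 46 pools), Hdc (0.53) and Arrb2, a β-arrestin (0.50). The least alike was Ramp3 (-0.42), which encodes an accessory protein of amylin receptors. Without the 2 left cortex pools farthest in Pomc, Ramp3 was at -0.22. In the right cortex the most alike were Ramp1, another accessory protein (0.32 over 48 pools), Adrbk1 (0.29) and Akt2 (0.25), both kinases. The least alike was Stat3, a transcription factor of leptin signalling (-0.32). Over the 42 other genes the median r was -0.17 in midbrain, -0.01 in hindbrain, 0.19 in left and 0.02 in right cortex. The genes named were picked as the extremes of these.

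**Figure D2:**
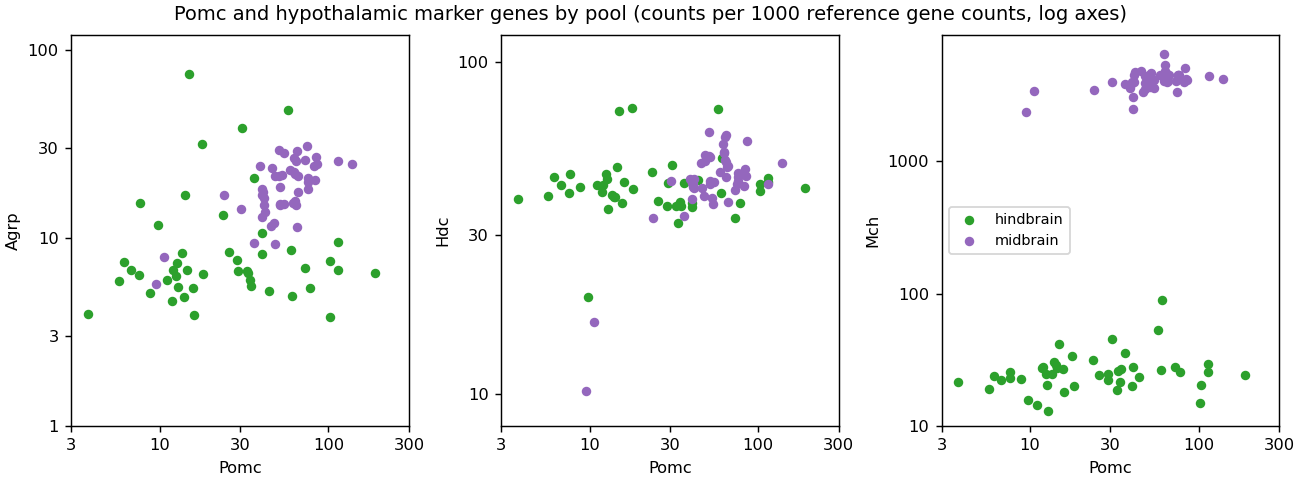
Level of Agrp, Hdc and Mch against that of Pomc in the hindbrain (green) and midbrain (purple) pools, all as counts per 1000 reference gene counts on log axes, 1 point per pool. The 2 midbrain pools with Pomc near 10 are low in Hdc and Agrp, and the hindbrain pools with Pomc above 100 stay at hindbrain levels of Agrp and Mch.

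The question of the study was whether genotype altered the expression of metabolic genes in the brain. HEM and HOM pools were compared with NON pools of the same region, time point and collection time. The comparisons of a time point share the NON pools. At T2 the HEM and HOM mice were taken at the onset of diabetes and the NON mice were controls. Genotype and diabetes were thus not separated there, and the part of each was not tested. Of 44 such comparisons for Pomc, 39 were tested, the other 5 having a lone pool in a group, and none was called by edgeR. The fold-change was above 0 in 25 and below 0 in 19, and 4 of the 39 had an unadjusted p under 0.05, 2 in the hindbrain, 1 in the midbrain and 1 in the right cortex. Over all genes 10.2% of hindbrain tests and 15.6% of midbrain and of right cortex tests had such a p. By DESeq2 none was called. The called share over all 43 genes was 0.465% for hindbrain, 0.465% for midbrain, 0.517% for left cortex and 0.233% for right cortex, so that few genes of any kind passed.

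In the hindbrain at T1, Pomc was at 57.4 and 72.4 in NON AM pools and at 36.4 and 60.2 in HOM AM pools. The groups overlapped, with a log2 fold-change of -0.42 ± 0.98 (adjusted p = 0.972). It was -0.58 without the NON AM pool at 57.4, the pool with high Agrp, Hcrt and Mch. With each pool left out in turn it ran from -0.83 to -0.11. NON PM pools were at 23.6, 29.2 and 32.8, HOM PM pools at 14.5 and 18.2 and HEM PM pools at 6.15 and 11.9. The HOM PM and HEM PM pools lay below the NON PM pools, and of the 43 genes 30.2% in HOM and 34.9% in HEM mice had groups that did not overlap. The fold-changes were -0.80 ± 0.94 in HOM (adjusted p = 0.950) and -1.68 ± 1.03 in HEM (adjusted p = 0.866), and neither passed. With only the groups compared in the fit, the HEM difference was -1.69 (adjusted p = 0.0357) and was called, so that the call depends on which pools set the spread. The 3 HEM pools with no stated collection time were at 17.8, 30.8 and 61.1, the first 2 with Agrp at 31.8 and 38.3.

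At T2, NON AM hindbrain pools were at 11.9 and 13.9, HEM AM pools at 12.7 and 114.5 and HOM AM pools at 7.59 and 44.2. The HEM difference of 2.28 ± 1.04 (adjusted p = 0.591) came from the higher of its 2 pools and was -0.026 without it. NON PM pools were at 12.5, 25.6, 28.9, 40.6 and 78.0. HOM PM pools were at 40.6, 102.8 and 189.1, so that 2 of the 3 lay above every NON PM pool and the other lay level with the second highest. Their log2 fold-change was 1.57 ± 0.70 (adjusted p = 0.457) and did not pass. Without the highest HOM PM pool it was 0.94. HEM PM pools were at 13.6, 15.7 and 114.2, inside and above the NON range, with a fold-change of 0.36 ± 0.71 (adjusted p = 0.959). It turned to -1.35 without the pool at 114.2.

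At T3, NON AM hindbrain pools were at 15.0 and 33.5, HEM AM pools at 34.9 and 102.2 and HOM AM pools at 7.66, 8.82 and 15.9. The lowest of the NON AM and of the HOM AM pools were at background. The HEM pools were above the NON pools, where 39.5% of the 43 genes had groups that did not overlap, and the HOM pools overlapped with NON. The log2 fold-changes were 1.30 ± 1.10 (adjusted p = 0.411) and -1.24 ± 1.13 (adjusted p = 0.433). With each pool left out in turn the HEM value ran from 0.33, without the HEM pool at 102.2, to 2.19, and the HOM value from -1.67 to -0.35, without the NON pool at 33.5. The difference between these effects, HOM minus HEM, was -2.54 ± 1.04 (adjusted p = 0.408). It ran from -3.12 to -1.57 with each pool left out, the latter without the HEM pool at 102.2. NON PM pools were at 6.77, 9.79, 11.0 and 14.2, of which the pool at 9.79 was at background, HEM PM pools were at 3.78, 5.71 and 34.2, and the lone HOM PM pool was at 12.9. The HEM PM difference was 0.52 ± 0.87 (adjusted p = 0.852), with pools on both sides of NON, and turned to -1.10 without the pool at 34.2.

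**Figure D3:**
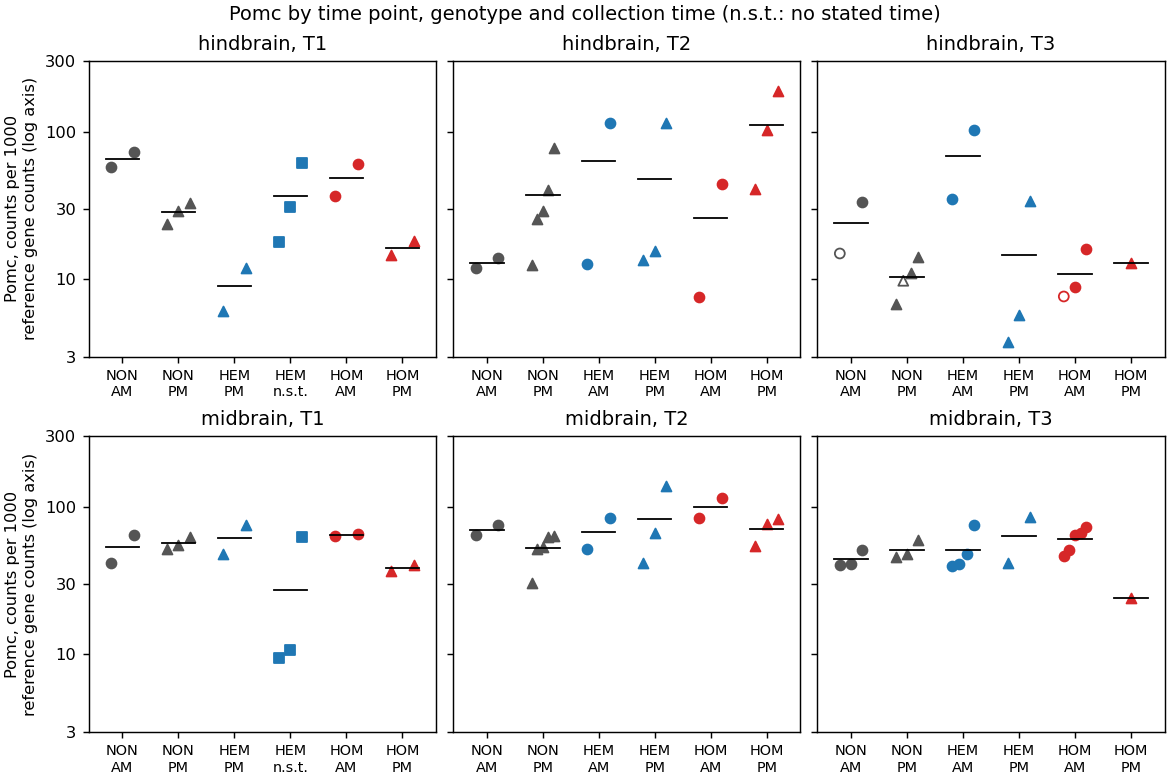
Pomc in every hindbrain (top) and midbrain (bottom) pool at T1, T2 and T3 by genotype and collection time, as counts per 1000 reference gene counts on a log axis, with a line at the group mean and open points where the count was not above background. In the hindbrain pools of a group differ by up to an order of magnitude, as in T2 HEM AM (12.7 and 114.5), while most midbrain pools lie between 30 and 100.

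In the midbrain, the region with the hypothalamus, Pomc levels were more even. At T2, HEM PM pools were at 41.6, 66.4 and 138.8, against 30.5, 51.9, 53.3, 62.4 and 63.4 in NON PM pools. The groups overlapped, and the log2 fold-change was 0.65 ± 0.28 (adjusted p = 0.314). Without the HEM pool at 138.8 it was 0.047. HOM PM pools were at 54.2, 76.2 and 82.5 (0.44 ± 0.28, adjusted p = 0.438). HOM AM pools were at 83.4 and 114.7 and NON AM pools at 64.1 and 75.6 (0.51 ± 0.39, adjusted p = 0.980). These groups did not overlap, which held for 30.2% of the 43 genes. Without the HOM AM pool at 114.7 the difference was 0.26. At T1, HOM PM pools were at 36.5 and 40.3, and NON PM pools at 52.0, 54.6 and 62.7, with a fold-change of -0.56 ± 0.37 (adjusted p = 0.414). They did not overlap, which held for 41.9% of the 43 genes. At T3, HOM AM pools were at 46.6, 50.9, 64.7, 66.5 and 73.2, and NON AM pools at 40.4, 40.9 and 51.2. They overlapped at the edge, with a fold-change of 0.45 ± 0.29 and the lowest adjusted p of the midbrain (0.293). On the positive control scale it was 0.67 (adjusted p = 0.0413), which passed the adjusted p but not the fold-change limit. The only T3 HOM PM pool was at 23.9, below the NON PM pools at 45.9, 48.0 and 59.2, and was not tested.

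In the cortices the 22 differences ran from -1.09 to 0.94 on the log2 scale, and the 19 that were tested had adjusted p-values of 0.165 to 0.998. The largest difference upwards was that of HOM PM mice in the right cortex at T2, where HOM pools were at 13.9, 15.9 and 44.6 and NON pools at 7.06, 9.21, 9.73, 10.7 and 27.8. The difference was 0.94 ± 0.42 (adjusted p = 0.165) and did not pass. It depended on 2 pools. Without the NON pool at 27.8 it was 1.44 (adjusted p = 0.0492) and was called, and without the HOM pool at 44.6 it was 0.21. These 2 pools were of similar labelled ages. Each of the 3 HOM PM pools of T2 had a NON PM pool of similar age, and in the right cortex the HOM level was the higher in all 3 such pairs, at 44.6 and 27.8, 13.9 and 10.7, and 15.9 and 7.06. With these 3 NON pools alone as controls the difference was 0.71 (adjusted p = 0.499). The HOM level was also the higher in 3 of 3 pairs in the midbrain (82.5 and 63.4, 54.2 and 30.5, and 76.2 and 62.4) and in 3 of 3 in the hindbrain, of which 1 pair had 40.6 in both, and in 2 of 3 in the left cortex. Of the HEM PM pools matched in this way, 2 of 3 were above NON in hindbrain and in midbrain, 3 of 3 in left and 0 of 3 in right cortex. Over the 43 genes, HOM was the higher in all 3 pairs for 15 genes in hindbrain, 5 in midbrain, 1 in left and 5 in right cortex, and HEM for 13, 6, 16 and 10. With the 3 pairs as a block in edgeR, a fit chosen after seeing the data, the HOM difference was 1.62 ± 0.62 in hindbrain (adjusted p = 0.338), 0.49 ± 0.13 in midbrain (adjusted p = 0.201), -0.13 ± 0.37 in left cortex (adjusted p = 0.804) and 0.74 ± 0.21 in right cortex (adjusted p = 0.296). In HEM mice the adjusted p ran from 0.231 to 0.967, and Pomc passed in no region. The regions of a pair came from the same mice. The HOM pool at 44.6 came from the same mice as the hindbrain pool at 189.

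**Figure D4:**
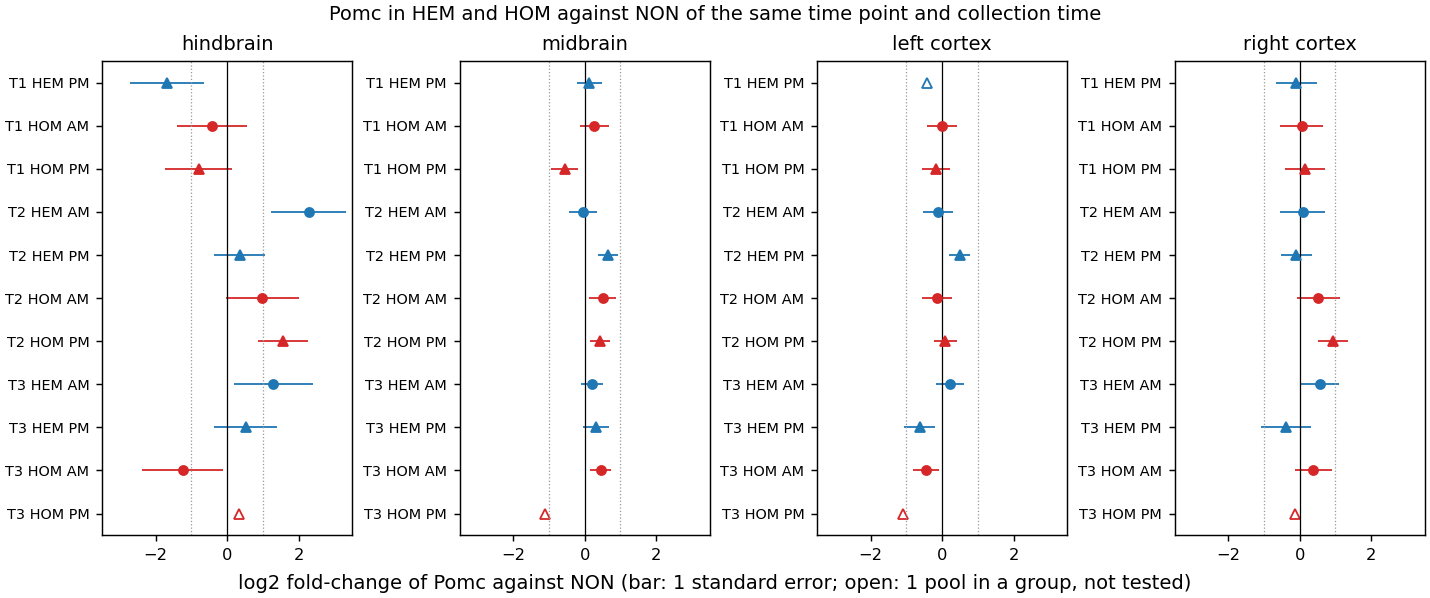
Log2 fold-change of Pomc in HEM (blue) and HOM (red) against NON pools of the same time point and collection time in each region, with bars of 1 SE from edgeR; circles are AM, triangles PM, and open points are comparisons with 1 pool in a group, which were not tested. Hindbrain fold-changes run from -1.68 to 2.28 with wide bars, and no comparison was called.

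Whether the genotype effect itself differed between time points or between HEM and HOM was tested 10 times in hindbrain and midbrain, and none was called (0% of all genes). 2 of the 10 had an unadjusted p under 0.05, as did 10.7% of all gene tests, and DESeq2 called none. In the hindbrain the HOM PM effect was -0.80 at T1 and 1.57 at T2, a difference of 2.37 ± 1.19 (adjusted p = 0.999). The HEM PM effect differed by 2.04 ± 1.25 in the same direction (adjusted p = 0.754), and by 0.34 without the T2 HEM PM pool at 114.2. In the midbrain the HOM PM effect was -0.56 at T1 and 0.44 at T2, a difference of 1.00 ± 0.47 (adjusted p = 0.586). Both regions, which came from the same mice, had a HOM PM fold-change below 0 at T1 and above 0 at T2, and in neither did the difference pass after adjustment.

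With AM and PM pools combined, none of 24 comparisons with NON was called for Pomc (0.484% of all genes), 2 had an unadjusted p under 0.05, as did 14.5% of all gene tests, and DESeq2 called none. Those with an unadjusted p under 0.05 were the T2 right cortex in HOM mice (0.77 ± 0.34, adjusted p = 0.263) and the T3 left cortex in HOM mice (-0.69 ± 0.26, adjusted p = 0.0954). The latter passed the adjusted p with TMM normalisation (-0.77, adjusted p = 0.0459) and turned to 0.015 on the positive control scale. The T3 hindbrain difference of HEM mice was 1.22 ± 0.77 (adjusted p = 0.290). On the positive control scale it was 2.53 (adjusted p = 0.00782) and was called. Without the NON PM pool at 27.8 the right cortex difference was 1.15 (adjusted p = 0.0463) and was called. In the T1 midbrain of HEM mice the value of -0.42 ± 0.36 (adjusted p = 0.640) turned to 0.17 without the 3 pools of no stated collection time, an alternative chosen after seeing the data.

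Time and collection time were examined within genotypes. Of 20 comparisons between time points none was called for Pomc by edgeR, where 3.95% of all genes were, and 1 was called by DESeq2. A single comparison passed the adjusted p alone, as did 31.7% of all genes, and 2 had an unadjusted p under 0.05, against 39% of all gene tests. The comparison that passed was the left cortex of HEM mice, in which Pomc was lower at T3 than at T2 by a log2 fold-change of -0.70 ± 0.29 (adjusted p = 0.0295), where the median of the 43 genes was -0.45 and 31 of them passed. With TMM normalisation it was -0.29 (adjusted p = 0.456) and did not pass. The T3 HEM left cortex pools had a median of 34.5 Pomc counts, 1.78 times background, and 1 of 6 was not above it. Their median reference gene mean was 3261 counts, against 5859 at T2. If the nCounter runs followed the time points, run and time point cannot be told apart in any of these comparisons. In NON hindbrain Pomc was at -1.35 ± 0.70 at T3 against T1 (adjusted p = 0.0953), with a median of -0.54 over the 43 genes, of which 27 passed the adjusted p, and this was the call made by DESeq2 (-1.40, adjusted p = 0.0433). Pomc was not above background in 2 of the 6 T3 pools, whose median reference gene mean was 1538 counts, against 4487 in the 5 T1 pools. The part of depth in this difference was not tested beyond leaving such pools out. Without the pools of low reference counts the value was -1.22 (adjusted p = 0.195). In HEM hindbrain T3 against T2 was -0.80 (adjusted p = 0.334), and without the T3 HEM PM pool at 34.2 it was -1.61 (adjusted p = 0.0452) and was called. It turned to 0.36 without the T2 HEM AM pool at 114.5. In HOM midbrain T2 against T1 was 0.75 ± 0.27 (adjusted p = 0.0930). PM against AM in NON mice gave no call in 12 comparisons (0% of all genes), no unadjusted p under 0.05 and no call by DESeq2. The hindbrain values were -1.19 ± 0.89 at T1, 1.52 ± 0.92 at T2 and -1.45 ± 1.05 at T3, so that the sign was not shared. The T3 value was -0.56 without the NON AM pool at 33.5, with only an AM pool at background left. At T3 the labels marked 43 pools over all regions as previously diabetic (12 NON, 13 HEM and 18 HOM) and 26 as not. Many of these pools came from the same mice. Each test used the pools of a single region, 15 in hindbrain and 18 in each of the others. The difference of previously diabetic pools from the others was 0.73 ± 0.61 in hindbrain, 0.29 ± 0.16 in midbrain, -0.31 ± 0.24 in left and -0.38 ± 0.28 in right cortex. The hindbrain value was 0.14 without the HEM PM pool at 34.2. With each pool left out in turn the midbrain value ran from 0.18 to 0.44. The left cortex value ran from -0.49 to -0.13 and the right from -0.64 to -0.23. None was called (0% of all genes), none had an unadjusted p under 0.05, DESeq2 called none, and the adjusted p ran from 0.459 to 0.650.

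Of the melanocortin and feeding list, 0 of 60 tests against NON in the hindbrain were called higher and 2 were called lower, which were all the calls of the 43 genes in that region (0.465%). Both were Agrp at T3 in AM, at -2.62 ± 0.82 in HEM (adjusted p = 0.0213) and -2.52 ± 0.85 in HOM mice (adjusted p = 0.0279). They rested on the NON pool with a reference gene mean of 267 counts, in which Agrp was at 74.9 where the other NON pool had 6.53. With the pools of low reference counts left out they were -0.46 (adjusted p = 0.806) and -0.51 (adjusted p = 0.763). In the midbrain and the cortices no gene of the list was called against NON within AM or PM. With AM and PM combined Cart was called lower in the left cortex of HEM mice at T2 (-1.27 ± 0.34, adjusted p = 0.0119). Of the leptin and insulin list, Socs3, which encodes a feedback inhibitor of leptin receptor signalling, was the gene called, always higher in HOM than in NON PM pools. It rose by 1.71 ± 0.49 at T1 and by 1.55 ± 0.38 at T2 in the midbrain, by 1.26 ± 0.41 at T2 in the left cortex and by 1.76 ± 0.48 at T1 in the right cortex. With AM and PM combined Socs3 was called in the midbrain of HOM mice at T2 (1.14 ± 0.34, adjusted p = 0.0474). Of that list no gene was called in the hindbrain. By the adjusted p alone 7 of its 130 tests passed in the hindbrain, 10 of 130 in the midbrain, 2 of 117 in the left and 12 of 130 in the right cortex, all higher, where the shares over all genes were 5.58%, 5.58%, 1.55% and 5.81%. The median log2 fold-change against NON was -0.07 for the melanocortin and feeding list and 0.04 for the leptin and insulin list in the hindbrain, and -0.02 and 0.03 in the midbrain.

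Pools of the same mice in 2 regions were compared by their log2 deviations from the group means, in 6 relations, with permutation tests. The permutations moved deviations freely between groups. Deviations within a small group depend on each other, since they are taken from their own mean. The sets were thus not independent, and the p-values, also after adjustment, are likely too small. Hindbrain and midbrain deviations correlated at r = 0.42 over 38 sets (p = 0.00795, adjusted p = 0.0159; rho = 0.37, p = 0.0244). Without the 2 sets farthest in the hindbrain r was 0.31. Within time points it was 0.62 at T1 and 0.62 at T2 and -0.40 over the 7 sets of T3, where it was not seen, and the difference between time points was not tested. Without the T1 HEM sets of no stated collection time it was 0.40 over 35 sets. Hindbrain and right cortex gave r = 0.45 over 36 sets (p = 0.00647, adjusted p = 0.0159; rho = 0.40, p = 0.0171), 0.38 without the 2 farthest sets, and -0.18 at T1, 0.53 at T2 and 0.71 at T3. Left and right cortex gave r = 0.40 over 44 sets (p = 0.00727, adjusted p = 0.0159; rho = 0.46, p = 0.00175), 0.55 without the 2 farthest sets, and 0.29, 0.64 and 0.18 within T1, T2 and T3. Hindbrain and left cortex gave 0.30 over 35 sets (adjusted p = 0.118), midbrain and left cortex 0.07 over 44 (adjusted p = 0.776) and midbrain and right cortex 0.04 over 46 sets (adjusted p = 0.782). Without the T1 HEM sets of no stated collection time, midbrain and right cortex gave 0.22 over 43 sets. The median correlation of the 43 genes over the same sets was 0.08 for hindbrain and midbrain, 0.13 for hindbrain and right cortex and 0.36 for both cortices. For hindbrain and left cortex it was 0.08. It was 0.18 for midbrain and left cortex and 0.17 for midbrain and right cortex, both above the values of Pomc.

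**Figure D5:**
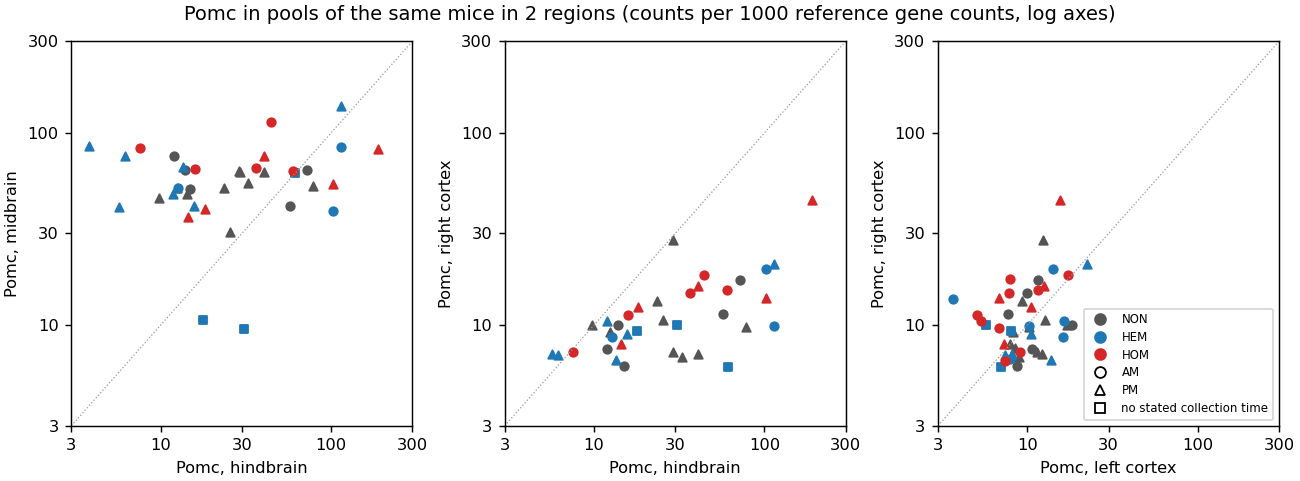
Pomc in pools of the same mice in 2 regions (counts per 1000 reference gene counts, log axes), for hindbrain and midbrain, hindbrain and right cortex, and left and right cortex, with colour for genotype, shape for collection time and a dotted line of equal levels. Most sets lie above the line in the left panel, since midbrain exceeded hindbrain in 29 of 38, and below it in the middle panel.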

How the data were processed

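NanoString nCounter counts were taken as the authors deposited them, as raw counts per gene without normalisation, for 192 pools, 43 target genes, 3 reference genes, 8 negative and 6 positive control probes. All pools with a stated collection time entered the comparisons within AM or PM. NanoStringDiff, the tool named in the study's methods, was not available, so edgeR 4.0.16 (R 4.3.3) was used with library sizes set to the reference genes (geometric mean) and a prior count of 0.125. A model for each region, in which every group of time point, genotype and AM or PM had its own mean, gave the genotype, time and collection time contrasts. Regions were compared within a genotype with time point and collection time as covariates. The call rule followed the study. Levels for correlations used a pseudocount of 0.5, and permutation tests drew 100000 permutations and were two-sided. Pandas 2.3.3, numpy 2.4.6 and scipy 1.17.1 were used. The fits were tested on simulated data with the same spread for every gene, below that of Pomc in the hindbrain. That test therefore does not show whether a change of Pomc there could be detected.

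Pomc and both gene lists were chosen with earlier results of these data known. The genes named were Pomc, the genes of the lists called in a comparison described, and per region the 3 genes most and the 1 gene least correlated with Pomc. A pool label was taken to mark the same mice in different regions, which pairs regions and not genotypes, since the other labels agreed for 49 of 50 pool labels. The study's methods state a preference for NON littermates as controls, or else NON mice of the same age from other litters. The labels do not say whether mice of different pools shared a litter, so litters could not be fitted. The p-values measure the spread between pools. No 2 pools of a group agreed within sampling noise (0 of 198 pairs by a chi-square test of counts). Alternatives were TMM over the 43 genes, the positive control probes, the reference genes without B2m, DESeq2 1.42.0, subtraction of the negative control mean, removal of genes at background, removal of pools of low reference counts, only the groups or regions compared, only the T2 NON PM pools of similar labelled age, the same-mice block, and each pool left out. Results on 1 reference gene are not reported here.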

Additional observations from a re-analysis of the deposited data

Results flagged for a closer look

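In the right cortex of NON PM pools at T2, 1 pool had a Pomc level of 27.8 counts per 1000 reference gene counts, where the next of the 5 pools was at 10.7. The gap took 0.827 of the range of the group. The pool had 256 Pomc counts and a reference gene mean of 9208 counts. Of 11 groups of at least 4 pools examined for such a pool, this was the 1 found. A find in 1 of 11 groups can arise by chance, and how often was not tested.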

How the results depend on the processing

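The 12 region differences called for Pomc kept their direction under every alternative, and no called difference turned its sign. With each alternative applied to the Pomc results it covered, 865 of 927 values kept their direction and their side of the call. Some alternatives covered only part of the results, and the fits with single pools left out are not in this count. Leaving out pools of low reference counts kept 40 of 40 values, and removing genes at background 132 of 132, on the same side. Pomc was not above background in 3 hindbrain, 3 left cortex and 1 right cortex pools. The number of Pomc calls against NON was 0, and 1 with only the groups compared in the fit (T1 hindbrain HEM PM, -1.69). It was 0 in time comparisons, and 1 by DESeq2 (hindbrain NON T3 against T1, -1.40) and 8 on the positive control scale. On that scale it was 1 among differences between effects and 1 with AM and PM together (T3 hindbrain HEM, 2.53). The positive control scale moved the median of all 43 genes by -1.76 to 0.36 in time, by -0.86 to 0.11 in region and by -0.43 to 1.84 in genotype comparisons. It moved that median by -0.32 to 1.42 with AM and PM together and by -0.64 to 1.87 in differences between effects. On that scale time comparisons of Pomc were -3.03 (hindbrain NON T3 against T1), 1.03 (midbrain HOM T2 against T1) and -1.41 (left cortex HEM T3 against T2). Those of T3 against T1 in NON mice were -1.53 in left cortex, turned from 0.044, and -2.23 in right cortex. In HOM mice they were -1.78 in left and -1.62 in right cortex. HEM right cortex T3 against T2 was -1.95. All 8 were called on that scale. On the same scale genotype differences were 1.35 (T3 hindbrain HOM PM), 0.079 (T2 midbrain HEM AM), -0.63 (T3 midbrain HOM PM) and 0.015 (T3 left cortex HOM, AM and PM together). T3 midbrain HOM AM was 0.67 and passed the adjusted p alone (0.0413). The T3 minus T2 difference of HEM AM effects in hindbrain was 0.74, and HOM minus HEM at T3 was -3.06. Previously diabetic pools differed by -0.63 in hindbrain and 0.021 in right cortex. Hindbrain against midbrain was -1.50 in NON, -1.03 in HEM and -1.43 in HOM mice, hindbrain against left and right cortex was 0.82 and 0.58 in NON, hindbrain against right cortex was 0.55 in HOM, and left against right cortex was -0.24 in NON and -0.21 in HEM mice. Without B2m, T2 midbrain HEM AM was 0.021. Hindbrain against midbrain in NON mice was -1.07 with the negative control mean subtracted and -1.01 with only those regions fitted. With only the NON pools of similar age at T2 PM, HOM differences were 1.81 in hindbrain, 0.45 in midbrain and 0.71 in right cortex, the left cortex value of 0.093 turned to -0.063, HEM differences kept their sign, and none was called. With these pools as age-matched pairs in a block, chosen after seeing the data, hindbrain HEM turned to -0.043 and left cortex HOM to -0.13, and none was called. With the pool of the same mice as a replicate block hindbrain against midbrain was -1.38 in HEM mice, and the block changed no other call. Without the T1 HEM pools of no stated collection time, an alternative chosen after seeing the data, the T1 midbrain HEM difference with AM and PM together was 0.17. The causes were not tested.

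With each pool left out in turn, calls numbered 0 to 1 in genotype, pooled and time comparisons. Hindbrain against midbrain ran from -1.10 to -0.87 in NON, -1.14 to -0.71 in HEM and -1.13 to -0.73 in HOM mice, and left against right cortex from -0.017 to 0.21 in NON and -0.012 to 0.18 in HEM mice. Hindbrain differences from NON ran from -0.026 to 3.14 (T2 HEM AM), -1.35 to 0.83 (T2 HEM PM), -0.77 to 1.77 (T2 HOM AM) and -1.10 to 0.97 (T3 HEM PM). Midbrain ones ran from -0.24 to 0.42 (T1 HEM PM), -0.00060 to 0.62 (T1 HOM AM), -0.43 to 0.27 (T2 HEM AM), -0.048 to 0.32 (T3 HEM AM) and -0.31 to 0.74 (T3 HEM PM). The T2 left cortex HOM PM difference ran from -0.19 to 0.35. The T2 right cortex HOM difference ran from 0.21 to 1.44 in PM and from 0.23 to 1.15 with AM and PM together. The HEM AM effect at T3 minus T2 in hindbrain ran from -1.96 to 1.32, and HEM hindbrain T3 against T2 from -1.61 to 0.36. Where leaving out a pool left a group with 1, that pool was taken to vary like the others.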
